A study of Arabidopsis thaliana with 15 samples.

Results

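Arabidopsis thaliana libraries labelled as the ebs shl double mutant were compared with wild type (WT) over all loci, with 3 libraries labelled ebs shl and 3 labelled WT, 6 of the 15 libraries of the series. The libraries were taken by these labels, while the gene lists and families described were chosen with earlier results of these data known. Both groups were whole seedlings of the Col-0 accession kept 3 weeks on reduced-strength Murashige and Skoog medium under a cycle of 8 h light with 16 h dark, and RNA of both was isolated with the same kit (RNeasy Plus Mini). The WT libraries carry no mutation in the labels, and the others are labelled as mutated in both EBS and SHL, whose alleles the labels do not name. The 3 libraries labelled lhp1, a single mutant with the same RNA kit, age and growth, served for a direct test of where the labelled double mutant differed from another mutant. Libraries are biological repeats. Messenger RNA was sequenced, and levels are given as CPM, counts scaled to library size with TMM factors.

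EBS and SHL are related plant proteins with a BAH domain and a PHD finger, which bind modified tails of histone H3 and act in the repression of flowering. Polycomb complexes place the mark H3K27me3 on developmental genes that are silent in a tissue, and proteins such as LHP1, a reader of the mark, and EMF1 take part in keeping them silent. Many genes under this control code for transcription factors of meristems, organ boundaries, flowers and seeds.

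The 6 libraries held 12695752 to 16247262 counts, and 20477 of 33602 loci had enough counts to be tested. WT and labelled double mutant libraries lay apart on the first principal component of log CPM, which held 63.0% of the variance. The transcript of EBS (AT4G22140) stood at 24.1, 27.4 and 25.9 CPM in WT and 2.58, 3.37 and 1.67 CPM in the ebs shl libraries, so it was lower in all 3. SHL (AT4G39100) stood at 38.1, 43.6 and 41.2 CPM in WT and 204, 225 and 221 CPM in the ebs shl libraries (log2 fold change 2.40, SE 0.12, adjusted p = 2.6e-08, edgeR), so its transcript was higher and not lower. Transcript level does not tell whether the SHL protein was affected, so this label could not be checked, and the libraries are called the labelled double mutant throughout. EMF1 (AT5G11530) was at 27.5, 28.7 and 27.7 CPM in WT and 121, 116 and 117 CPM in the ebs shl libraries, likewise higher in all 3. LHP1 (AT5G17690) was at 18.6, 20.1 and 20.8 CPM in WT and 19.2, 18.9 and 19.97 CPM in the ebs shl libraries, and the groups overlapped (log2 fold change -0.033, SE 0.09, adjusted p = 0.9, edgeR).

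A locus was called where its adjusted p was under 0.05 by the quasi-likelihood test of edgeR, with p adjusted by the Benjamini-Hochberg method over all 20477 loci. By this rule 1604 loci, 7.83%, differed between the labelled double mutant and WT, 1088 higher (5.31%) and 516 lower (2.52%). Higher loci started from low levels, with a median WT level of 3.86 CPM, against 27.2 CPM for lower loci and 13.7 CPM for all tested loci. Each fit without 1 of the 6 libraries made fewer calls, from 950 without replicate 3 of the labelled double mutant (733 higher and 217 lower) to 1119 without replicate 1 of WT, and 605 higher loci (2.95%) and 166 lower loci (0.811%) were called in all 6 of them. Lists of genes and transcription factor families are read below against these shares, and against the median log2 fold change of all tested loci, which was -0.0026. The lists themselves were not tested.

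**Figure D1:**
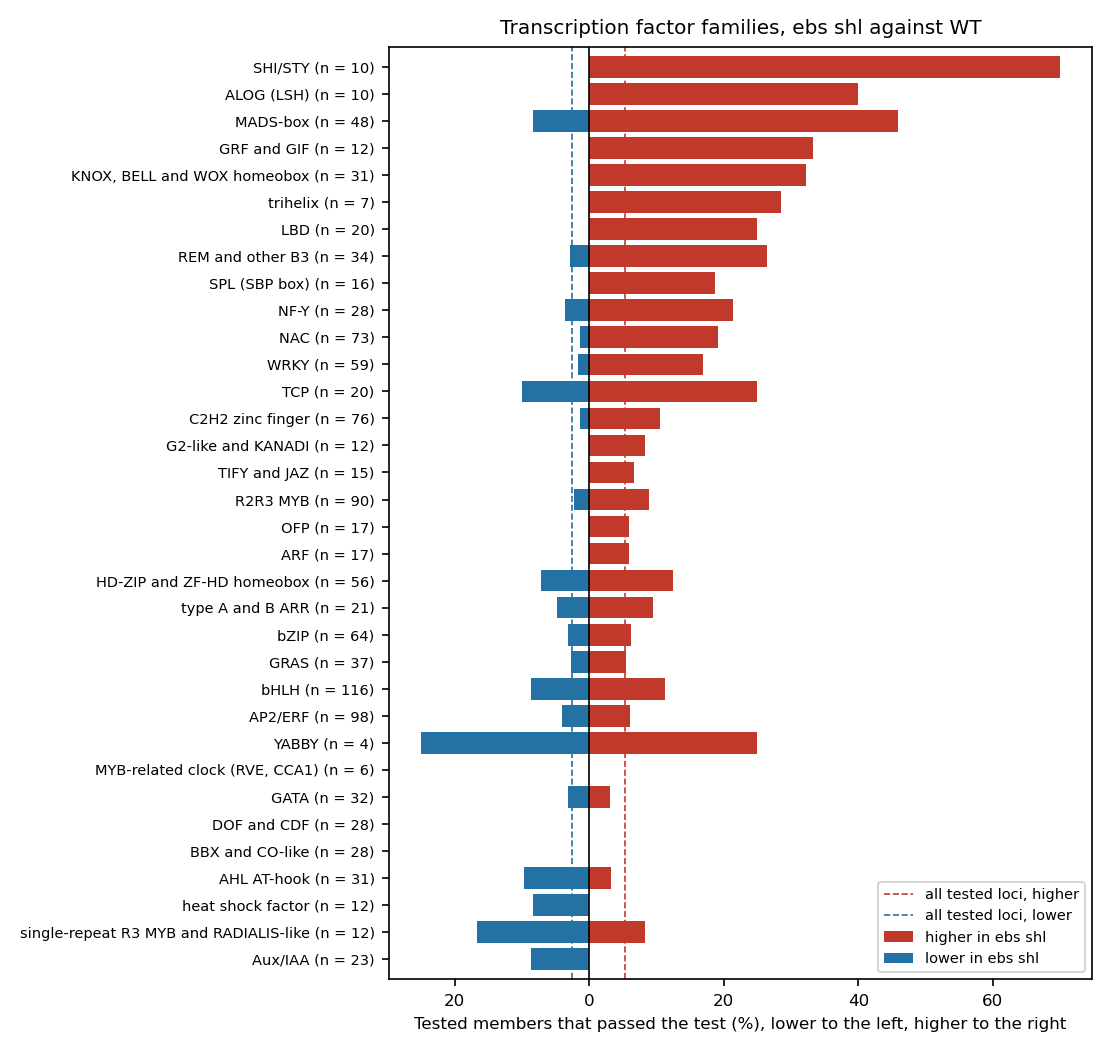
Share of tested members of each transcription factor family (x axis, percent) that were called lower (bars to the left) or higher (bars to the right) in ebs shl against WT, for families with 4 or more tested members. Dashed lines mark the shares over all tested loci, 2.52% lower and 5.31% higher, and SHI/STY reaches farthest to the right with 7 of 10 members.

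The SHI/STY family of zinc finger proteins, which activate auxin synthesis genes and shape the style, stamens and leaves, had the largest share of called members of the families with 4 or more tested members. Of its 10 tested genes 7 rose and 0 fell, 5 of them in every fit without 1 library, and the median log2 fold change of the 10 was 1.26. SRS4 (AT2G18120) stood at 0.484, 0.672 and 0.754 CPM in WT and 7.54, 10.7 and 11.8 CPM in the ebs shl libraries (log2 fold change 3.96, SE 0.36, adjusted p = 9.8e-06, edgeR). SRS7 (AT1G19790) stood at 0.725, 1.04 and 1.7 CPM in WT and 5.91, 5.78 and 6.08 CPM in the ebs shl libraries (log2 fold change 2.36, SE 0.26, adjusted p = 4.9e-05, edgeR). In both genes every library of the labelled double mutant lay above every WT library. Over all tested loci 30.6% had groups that did not overlap, in either direction. SRS5 (AT1G75520) rose from 3.08 ± 0.657 to 11.2 ± 1.09 CPM (SD, n = 3), while SHI and STY2 rose by 1.83 and 1.75 on the log2 scale. The smaller rises of STY1 (0.77) and LRP1 (0.70) were not called in every fit without 1 library. All 7 were also above lhp1 in the direct test, in which 5.06% of all loci differed (3.67% higher and 1.39% lower).

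The ALOG family of small DNA-binding proteins, several of which act in organ boundaries, had 10 tested genes, of which 4 rose and 0 fell (median 1.29). LSH10 (AT2G42610) stood at 4.05, 2.99 and 4.02 CPM in WT and 26.9, 33.9 and 33.3 CPM in the ebs shl libraries (log2 fold change 3.09, SE 0.23, adjusted p = 1.2e-06, edgeR). LSH4 (AT3G23290), a boundary gene known as a target of CUC1, rose from 7.62 ± 1.32 to 21.9 ± 1.52 CPM, and LSH9 (AT4G18610) rose from 1.12 ± 0.246 to 3.06 ± 0.603 CPM (SD, n = 3). The fourth, LSH7, rose by 3.15 on the log2 scale but was not called in every fit without 1 library. LSH10 and LSH4 stood above lhp1 as well (log2 fold change 2.22, SE 0.22, adjusted p = 4.2e-05, edgeR for LSH10).

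Beyond the floral genes, many genes of organ boundaries and of the shoot meristem rose. Of 36 tested genes in the list of boundary, meristem and KNOX genes, 16 rose and 0 fell, and 12 were called in every fit without 1 library. The median log2 fold change was 0.36. WOX9 (AT2G33880), a homeobox gene of embryos and meristems, stood at 0, 0.244 and 0.0628 CPM in WT and 2.33, 3.15 and 1.73 CPM in the ebs shl libraries (log2 fold change 4.43, SE 0.51, adjusted p = 8.3e-05, edgeR). The NAC genes CUC1, CUC2 and CUC3, which separate organs from one another, were the other leading members. CUC1 (AT3G15170) stood at 0.423, 0.183 and 0.503 CPM in WT and 2.2, 2.34 and 2.45 CPM in the ebs shl libraries, and CUC2 (AT5G53950) at 0.725, 0.672 and 1.07 CPM in WT and 4.34, 4.02 and 4.02 CPM in the ebs shl libraries. The groups did not overlap in either gene, nor in CUC3, which was also the case in 30.6% of all tested loci.

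Further members of the list were regulators of axillary meristems and stems. LAS (AT1G55580), a GRAS gene needed to start axillary meristems, stood at 0.484, 0.855 and 1.19 CPM in WT and 3.02, 3.37 and 4.02 CPM in the ebs shl libraries (log2 fold change 2.03, SE 0.35, adjusted p = 0.0021, edgeR). LOF1 (AT1G26780), a boundary MYB gene, stood at 0.604, 0.733 and 0.565 CPM in WT and 1.7, 2.78 and 3.4 CPM in the ebs shl libraries. The BELL homeobox gene PNY (AT5G02030), a partner of KNOX proteins in the stem, rose from 13.7 ± 1.53 to 58.9 ± 1.5 CPM, and its relative PNF (AT2G27990) rose from 3.37 ± 0.963 to 8.06 ± 1.24 CPM (SD, n = 3). Among the KNOX genes, KNAT6 (AT1G23380) rose from 6.94 ± 0.306 to 17.2 ± 1.89 CPM and STM (AT1G62360), which maintains the meristem, rose from 3.06 ± 0.41 to 6.74 ± 0.65 CPM (SD, n = 3). KNAT1 rose by 0.86 on the log2 scale and BOP1, a boundary gene of leaf bases, by 1.23. PNY, KNAT6, PNF and LAS also stood above lhp1, whereas STM, CUC1, CUC2 and WOX9 did not pass that test.

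The markers of shoot meristem and stem are for the most part the genes just described, namely STM, KNAT1, KNAT6, CUC1, CUC2, CUC3 and LAS. The others are LFY, TFL1, WUS and CLV3, so the markers are no separate check of those rises. All 9 tested markers of 11 rose, and their summed level was 26.1 to 31.4 CPM in the WT libraries, 65.8 to 72.2 CPM in the labelled double mutant and 36.5 to 40.1 CPM in lhp1. The stem cell genes WUS and CLV3 had too few counts to be tested, with 0 counts each in WT and 7 and 2 in the labelled double mutant. In whole seedlings a larger share of such cells and more RNA per cell cannot be told apart, and their part in the rises was not tested. Of 24 root markers 0 rose and 1 fell, with summed levels of 455 to 530 CPM in WT and 426 to 471 CPM in the labelled double mutant. Of the 24, 18 had a negative log2 fold change (median -0.28), and 4 and 2 were called lower in the fits of 9 and of 6 libraries. Leaf mesophyll markers summed to 53783 to 57705 CPM in WT and 49176 to 57194 CPM in the labelled double mutant, and 1 of 12, the catalase gene CAT3, rose. Pollen and anther markers summed to 17.4 to 20.5 and 22.9 to 25.7 CPM. Of their 25 genes 6 could be tested and 1 rose, the SPL gene SPL8, while the tapetum and pollen wall genes MS1, MS2, CYP703A2 and CYP704B1 had 0 counts in all 6 libraries.

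The TCP family held both rises and falls. Of 20 tested genes 5 rose and 2 fell. BRC1 (AT3G18550), which holds back the outgrowth of axillary buds, stood at 0, 0.0611 and 0.126 CPM in WT and 2.89, 1.39 and 0.892 CPM in the ebs shl libraries, a ratio of 27.8 (exact 95% counting interval 9.17 to 137). TCP12 (AT1G68800), a relative that also acts in buds, stood at 0.0604, 0.244 and 0.188 CPM in WT and 1.57, 0.732 and 0.837 CPM in the ebs shl libraries (log2 fold change 2.62, SE 0.54, adjusted p = 0.0082, edgeR). TCP1 (AT1G67260) stood at 0, 0.0611 and 0 CPM in WT and 0.754, 1.83 and 0.892 CPM in the ebs shl libraries, a ratio of 54.5 (counting interval 9.36 to 2192). Every labelled double mutant library lay above every WT library in these 3 genes, at levels below 3 CPM. Groups did not overlap in 30.6% of all tested loci. TCP17, a leaf growth gene, rose by 0.90 on the log2 scale. CHE, a regulator of the clock gene CCA1, and AT5G23280 fell by 0.76 and 0.84 on the log2 scale. Another gene of axillary meristems, the MYB gene MYB37 (AT5G23000), also called RAX1, stood at 0.665, 0.244 and 0.565 CPM in WT and 3.52, 4.61 and 4.02 CPM in the ebs shl libraries (log2 fold change 3.02, SE 0.39, adjusted p = 0.00021, edgeR).

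**Figure D2:**
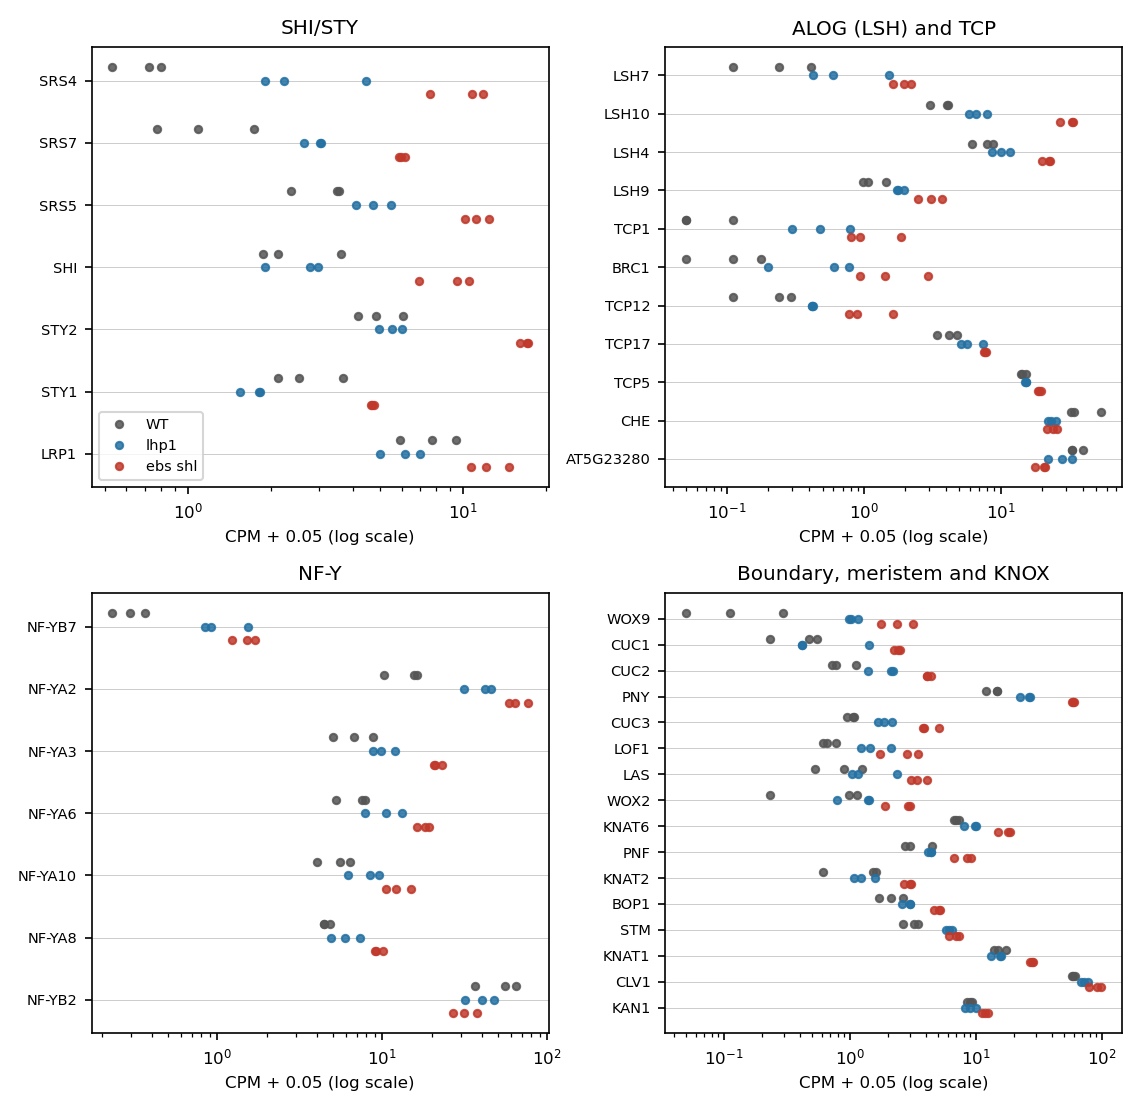
Level of every called SHI/STY, ALOG, TCP, NF-Y and boundary, meristem and KNOX gene in each library (x axis, CPM plus 0.05 on a log scale), with 1 point per library for WT, lhp1 and ebs shl. For SRS4, LSH10, NF-YA2 and PNY all 3 ebs shl points lie to the right of all WT and lhp1 points, and for CHE and AT5G23280 all 3 lie to the left of all WT points. For NF-YB2 the WT and ebs shl points overlap.

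NF-Y proteins are trimeric CCAAT-box binding factors, and the transcripts of several of their A subunits are targets of the microRNA miR169. Of 28 tested NF-Y genes 6 rose and 1 fell, and all 6 rises were called in every fit without 1 library. The rises were those of 5 A subunits and of 1 B subunit. NF-YA2 (AT3G05690) stood at 15.4, 10.1 and 16.2 CPM in WT and 76.1, 58.6 and 63.6 CPM in the ebs shl libraries (log2 fold change 2.25, SE 0.17, adjusted p = 2e-06, edgeR). NF-YA3 (AT1G72830) stood at 6.65, 4.95 and 8.73 CPM in WT and 20.6, 23 and 20.9 CPM in the ebs shl libraries (log2 fold change 1.66, SE 0.19, adjusted p = 6.5e-05, edgeR). NF-YA6, NF-YA10 and NF-YA8 rose by 1.38, 1.24 and 1.05 on the log2 scale, and NF-YB7 (AT2G13570) stood at 0.181, 0.244 and 0.314 CPM in WT and 1.63, 1.46 and 1.17 CPM in the ebs shl libraries. The fall was that of NF-YB2, by 0.72 on the log2 scale, and its groups overlapped. NF-YA2 was also above lhp1, which stood at 39.5 ± 7.29 CPM (log2 fold change 0.75, SE 0.16, adjusted p = 0.017, edgeR).

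Of 34 tested B3 genes, among them the REM genes of reproductive meristems, 9 rose and 1 fell (median 0.63). AT4G34400 stood at 0.725, 0.855 and 1.01 CPM in WT and 12.6, 12.8 and 13.5 CPM in the ebs shl libraries (log2 fold change 3.90, SE 0.36, adjusted p = 1.2e-05, edgeR). REM1 (AT4G31610) stood at 0.0604, 0.244 and 0.188 CPM in WT and 3.46, 3.51 and 4.41 CPM in the ebs shl libraries. REM1 overlaps an antisense gene that was also tested, and how the counting treated strand is not given in the sources used here, so its values are uncertain, as are those of other genes with such an overlap. AT5G66980 was without counts in WT and reached 1.38, 1.54 and 1.78 CPM in the labelled double mutant, at least 25.7-fold higher at a floor of 3 counts over the 3 WT libraries. NGA4 and NGA3, of a group that patterns leaf margins and the style, rose by 3.28 and 1.52 on the log2 scale.

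The NAC and WRKY families had larger shares of rises than all loci, 19.2% and 16.9% against 5.31%. The shares called lower were 1.37% and 1.69%, against 2.52%. Of 73 tested NAC genes 14 rose and 1 fell, with 9 rises called in every fit without 1 library. Beside the CUC genes these included NAC074, NAC075 and NAC046, the last a regulator of leaf senescence, at 2.04, 1.70 and 1.56 on the log2 scale. Of 59 tested WRKY genes, a family known from defence and stress, 10 rose and 1 fell. WRKY28 (AT4G18170) stood at 2.24, 3.18 and 3.46 CPM in WT and 19, 11 and 11 CPM in the ebs shl libraries (log2 fold change 2.21, SE 0.39, adjusted p = 0.0027, edgeR). WRKY60 (AT2G25000) and WRKY26 (AT5G07100) rose from 3.93 ± 0.349 to 15.6 ± 2.47 CPM and from 3.26 ± 0.283 to 8.91 ± 0.453 CPM (SD, n = 3). The 3 stood above lhp1 too.

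The MADS-box family, which holds most floral organ genes, had 22 rises and 4 falls among 48 tested genes. Members outside the lists of floral identity and flowering time also rose. AGL17 and AGL44 rose by 3.32 and 3.48 on the log2 scale, each in every fit without 1 library. TT16, a gene of the seed coat, was listed with 0 counts in WT and stood at 0.503, 0.293 and 0.558 CPM in the labelled double mutant, at least 7.54-fold higher. In the flowering time list, AGL71 was without counts in WT and reached 2.64, 2.85 and 2.45 CPM in the labelled double mutant, at least 42.8-fold higher. FDP, a bZIP relative of the FT partner FD, stood at 0.786, 0.733 and 0.628 CPM in WT and 6.03, 6.22 and 5.8 CPM in the ebs shl libraries. The falls of AGL15 and AGL18, which delay flowering and are expressed in embryos, were from 1.04 ± 0.262 to 0.252 ± 0.0537 CPM and from 11.4 ± 0.312 to 3.54 ± 0.441 CPM (SD, n = 3). AP1, AP3 and SEP2 led the floral list, with ratios of 546 (counting interval 97.5 to 21600), 301 (102 to 1460) and 190.2 (52.3 to 1576). FT, the mobile flowering signal, had a ratio of 51.4 (counting interval 13.9 to 430.3).

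Of 16 tested SPL genes 3 rose and 0 fell. They were SPL4 and SPL5, phase change genes under the microRNA miR156, and SPL8, a gene of anther and style development. SPL4 (AT1G53160) stood at 1.81, 3.79 and 2.51 CPM in WT and 13.3, 13.4 and 14.3 CPM in the ebs shl libraries, and SPL8 (AT1G02065) at 0.786, 1.1 and 1.07 CPM in WT and 5.15, 6.29 and 6.14 CPM in the ebs shl libraries. Of 12 tested growth-regulating factor and GIF genes 4 rose and 0 fell, led by GRF7 (AT5G53660) at 0.604, 0.672 and 0.754 CPM in WT and 3.65, 4.17 and 4.57 CPM in the ebs shl libraries (log2 fold change 2.60, SE 0.51, adjusted p = 0.0058, edgeR). Of the 4, GRF7 alone was called in every fit without 1 library. Of 20 tested LBD genes 5 rose and 0 fell, and the boundary gene LOB (AT5G63090) rose from 2.44 ± 0.165 to 6.04 ± 0.934 CPM, the lateral root gene LBD16 (AT2G42430) from 2.03 ± 0.694 to 5.46 ± 1.05 CPM and LBD21 (AT3G11090) from 10.4 ± 1.05 to 15.4 ± 0.557 CPM (SD, n = 3). Both called trihelix genes of 7 tested rose, the perianth gene PTL (AT5G03680) from 2.76 ± 0.0163 to 8.22 ± 1.58 CPM and EDA31 (AT3G10000) from 2.62 ± 0.0585 to 5.8 ± 0.847 CPM (SD, n = 3).

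Other families differed in their shares of calls. Called higher were 3.1% of GATA, 10.5% of C2H2, 12.5% of HD-ZIP and ZF-HD and 8.89% of R2R3 MYB genes. In the same order 3.1%, 1.32%, 7.14% and 2.22% were called lower. Over all loci the shares were 5.31% higher and 2.52% lower. Of 32 tested GATA genes 1 rose and 1 fell, and the one that rose, GATA13 (AT2G28340), stood at 0.121, 0.122 and 0.188 CPM in WT and 6.6, 5.85 and 6.97 CPM in the ebs shl libraries (log2 fold change 5.42, SE 0.36, adjusted p = 5.5e-07, edgeR). Of 76 tested C2H2 zinc finger genes 8 rose and 1 fell. AT5G54360 was without counts in WT and reached 1.45, 1.32 and 1.51 CPM (at least 23.3-fold higher), IDD16 (AT1G25250) rose from 0.942 ± 0.0256 to 8.12 ± 0.832 CPM and ZFP10 (AT2G37740) from 0.206 ± 0.0986 to 1.7 ± 0.534 CPM (SD, n = 3). Of 56 tested HD-ZIP and ZF-HD homeobox genes 7 rose and 4 fell, and ATHB54 (AT1G27045) stood at 0.121, 0.244 and 0.188 CPM in WT and 3.65, 3.44 and 2.12 CPM in the ebs shl libraries, while HB20 and HAT9 rose by 1.09 and 0.80 on the log2 scale. Of 90 tested R2R3 MYB genes 8 rose and 2 fell, with MYB59 (AT5G59780) rising from 42.2 ± 1.64 to 95 ± 8.32 CPM (SD, n = 3).

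Among 98 tested AP2/ERF genes 6 rose and 4 fell, shares close to those of all loci. DREB2A, an activator of drought and heat genes, stood at 2.78, 8.12 and 3.39 CPM in WT and 36.7, 31.2 and 35.6 CPM in the ebs shl libraries (log2 fold change 2.85, SE 0.34, adjusted p = 0.0001, edgeR), and it overlaps a tested gene on the other strand. EBP (AT3G16770), an ethylene response factor also called RAP2.3, rose from 107 ± 5.44 to 371 ± 25.2 CPM, and ERF12 from 0.594 ± 0.359 to 3.62 ± 0.741 CPM (SD, n = 3). In the bZIP family 4 of 64 rose and 2 fell. The single-repeat MYB genes TRY and TCL2, both of which hold back trichome formation, moved in opposite directions, TRY rising by 1.97 and TCL2 falling by 1.32 on the log2 scale.

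Falls were more frequent than over all loci in the bHLH family, which also held rises. Of 116 tested bHLH genes 13 rose and 10 fell. AT3G21330 stood at 5.38, 3.11 and 3.33 CPM in WT and 0.314, 0.0732 and 0.39 CPM in the ebs shl libraries (log2 fold change -3.82, SE 0.44, adjusted p = 8.3e-05, edgeR). BEE3 (AT1G73830) and BEE1 (AT1G18400), early responders to brassinosteroids, fell from 23 ± 8.74 to 2.57 ± 0.973 CPM and from 4.25 ± 0.529 to 1.17 ± 0.351 CPM (SD, n = 3), and BEE2 fell by 0.87 on the log2 scale. SPCH, which starts the stomatal lineage, fell by 1.23. The bHLH gene AT4G00870 was the highest of the rises that met the naming rule, at 0.302, 0.122 and 0.314 CPM in WT and 2.45, 2.05 and 4.07 CPM in the ebs shl libraries. Of 4 tested YABBY genes, which set the lower side of the leaf, YAB5 (AT2G26580) stood at 12.6, 13.6 and 16.8 CPM in WT and 1.32, 1.9 and 1.51 CPM in the ebs shl libraries (log2 fold change -3.19, SE 0.23, adjusted p = 1.1e-06, edgeR), while YAB2 (AT1G08465) rose from 14.8 ± 1.37 to 24.2 ± 1.84 CPM (SD, n = 3). In lhp1 YAB5 was at 2, 2.12 and 1.46 CPM, and the direct test did not separate it from the labelled double mutant. Of 31 tested AT-hook genes 1 rose and 3 fell, among them AGF2, from 28.7 ± 4.42 to 17.1 ± 1.07 CPM (SD, n = 3). AT4G39925, named after its values were seen, was at 1.15, 0.733 and 0.942 CPM in WT and had no count in the labelled double mutant, at least 14.9-fold lower at a floor of 3 counts over the group. It lies within 100 tested loci of SHL.

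**Figure D3:**
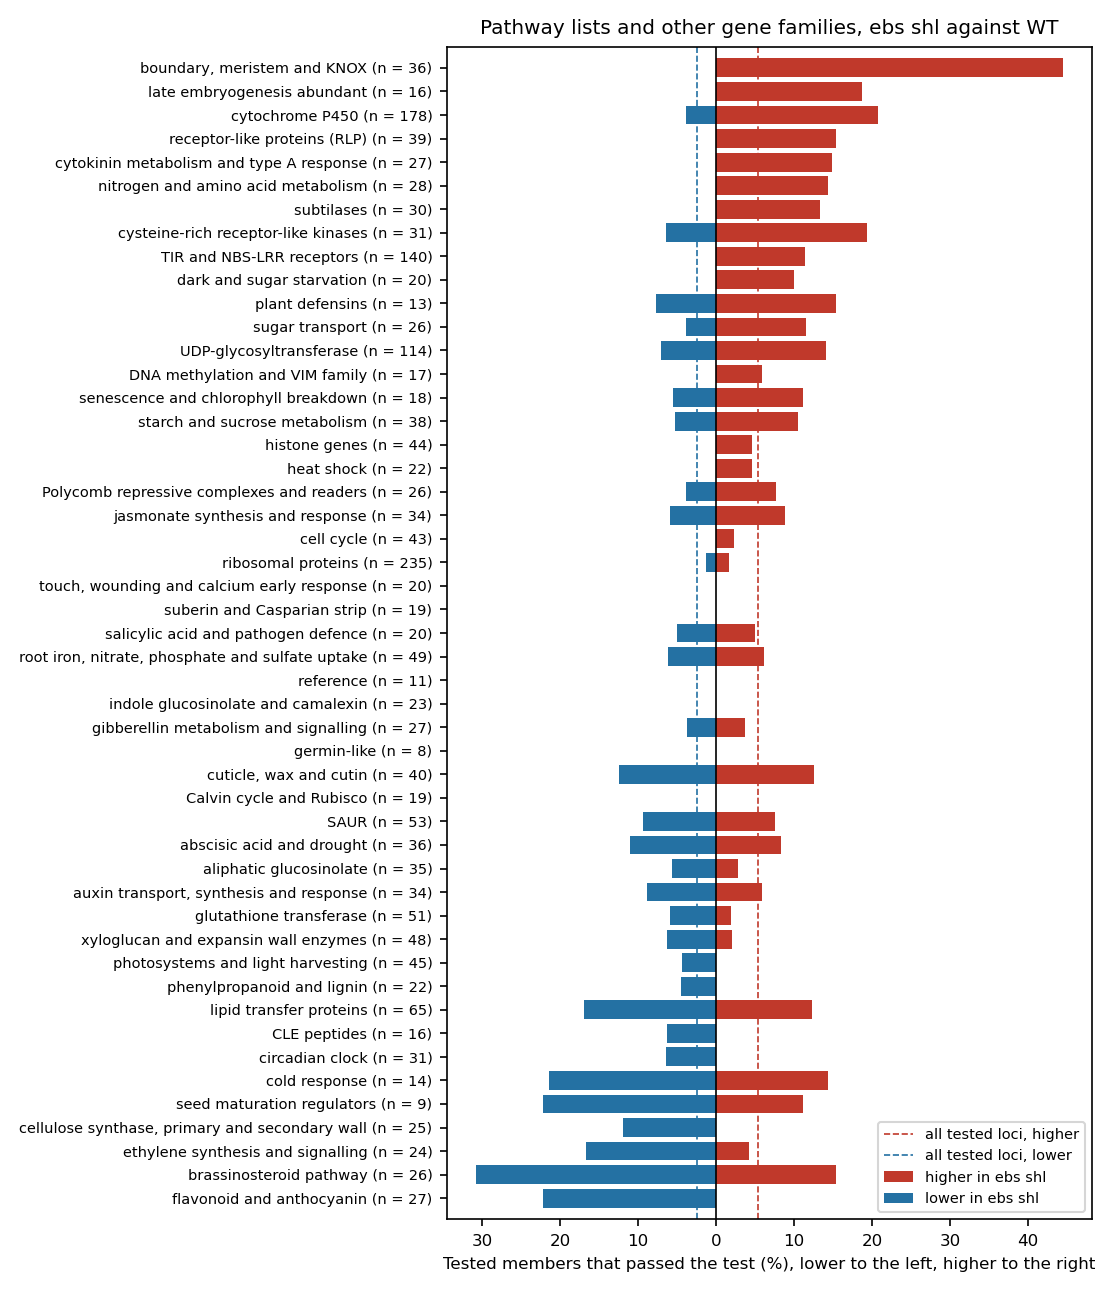
Share of tested members of each pathway list and other gene family (x axis, percent) called lower (bars to the left) or higher (bars to the right) in ebs shl against WT, for lists with 4 or more tested members, the 2 floral lists left out. Dashed lines mark the shares over all tested loci, 2.52% lower and 5.31% higher. Boundary, meristem and KNOX genes stand at the top with 16 of 36 higher, and flavonoid and anthocyanin genes at the bottom with 6 of 27 lower.

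Brassinosteroid genes changed in both directions. Of 26 tested genes of the pathway 4 rose and 8 fell, and 3 and 4 of these were called in every fit without 1 library. The falls were led by response genes: BEE3 stood at 14.3, 31.8 and 22.9 CPM in WT and 2.95, 1.46 and 3.29 CPM in the ebs shl libraries (log2 fold change -3.13, SE 0.34, adjusted p = 4.5e-05, edgeR). BAS1 (AT2G26710), a cytochrome P450 that inactivates the hormone, fell from 25.8 ± 3.59 to 9.3 ± 2 CPM (SD, n = 3). The synthesis genes CPD and BR6OX2 rose by 0.70 and 1.00 on the log2 scale, while BR6OX1 and DWF1 fell by 1.68 and 0.37. BEE3 and BAS1 were also below lhp1 in the direct test.

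Calls in the auxin lists went in both directions. TAA1 (AT1G70560), an aminotransferase at the start of auxin synthesis, stood at 13.1, 10.4 and 11 CPM in WT and 28.8, 41.4 and 41.7 CPM in the ebs shl libraries (log2 fold change 1.70, SE 0.21, adjusted p = 0.00015, edgeR). The auxin efflux carrier genes PIN3 (AT1G70940) and PIN4 (AT2G01420) fell from 137 ± 25.3 to 80.7 ± 3.35 CPM and from 94.4 ± 9.75 to 55.8 ± 5.99 CPM (SD, n = 3). Of 34 tested genes of auxin transport, synthesis and response, 2 rose (5.88% against 5.31% of all loci) and 3 fell (8.82% against 2.52%). Of these, 1 rise and 2 falls were called in every fit without 1 library. Of 23 tested Aux/IAA repressors of auxin response 0 rose and 2 fell, SHY2 (also IAA3), whose locus overlaps a tested gene on the other strand, from 62.8 ± 16.8 to 21.4 ± 4.88 CPM, and IAA14 (AT4G14550) from 19.3 ± 3.05 to 10.2 ± 0.374 CPM (SD, n = 3). Of 53 tested SAUR genes, fast auxin responders, 4 rose and 5 fell, and 1 of the 9, AT3G60690, was called in every fit without 1 library. The SAUR median was -0.44 on the log2 scale. The shares called lower were 8.70% in Aux/IAA and 9.43% in SAUR, against 2.52% of all loci. In SAUR 7.55% were called higher, against 5.31% of all loci.

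Cytokinin and ethylene lists had larger shares of calls than all loci. Of 27 tested cytokinin genes 4 rose (14.8% against 5.31% of all loci) and 0 fell, and 1 of the rises was called in every fit without 1 library. The median was 0.036 with 14 positive and 13 negative. DESeq2 called 4 higher and 4 lower, and the fits of 9 and of 6 libraries each called 4 higher and 3 lower. The response regulator ARR15 (AT1G74890) stood at 1.69, 1.04 and 1.7 CPM in WT and 2.77, 10.7 and 8.7 CPM in the ebs shl libraries. Replicate 1 of the labelled double mutant was the lowest of its group in ARR15, and still above WT. Of 27 tested gibberellin genes RGL3 (AT5G17490), a DELLA repressor, rose from 4.93 ± 0.0297 to 14 ± 3.01 CPM (SD, n = 3) and GA3, a synthesis gene, fell by 0.49 on the log2 scale. Of 24 tested ethylene genes 1 rose and 4 fell (16.7% against 2.52% of all loci). The ethylene transcription factor EIL1 (AT2G27050) fell from 73.2 ± 15 to 45.9 ± 5.18 CPM (SD, n = 3), the 1 member called in every fit without 1 library.

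Of 34 tested jasmonate genes 3 rose and 2 fell. The storage protein genes VSP2 and VSP1 rose by 3.54 and 2.46 on the log2 scale, whereas the synthesis gene AOC2 (AT3G25770) stood at 26.5, 54.5 and 54.2 CPM in WT and 9.99, 11.3 and 9.26 CPM in the ebs shl libraries (log2 fold change -2.15, SE 0.31, adjusted p = 0.00061, edgeR). AOS, at an earlier step of the same route, fell by 1.17 but not in every fit without 1 library. Of 36 tested abscisic acid and drought genes 3 rose and 4 fell. The receptor gene PYL6 (AT2G40330) stood at 2.48, 1.4 and 0.88 CPM in WT and 5.34, 8.56 and 9.2 CPM in the ebs shl libraries (log2 fold change 2.27, SE 0.39, adjusted p = 0.002, edgeR), while the response genes RD22 (AT5G25610) and ABF3 fell from 405 ± 16.5 to 175 ± 13.8 CPM and from 72 ± 8.24 to 33.8 ± 1.58 CPM (SD, n = 3). ABF3 overlaps a tested gene on the other strand. Of 14 tested cold genes 2 rose and 3 fell, and COR27, a cold and clock gene, stood at 0.0604, 0.183 and 0.126 CPM in WT and 1.32, 1.54 and 1.39 CPM in the ebs shl libraries, while GolS3, of raffinose synthesis, rose from 1.84 ± 0.669 to 8.41 ± 3.17 CPM (SD, n = 3). Of 20 tested genes of salicylic acid and pathogen defence 1 rose and 1 fell. EDS5, which exports the hormone's precursor from the chloroplast, fell from 10.2 ± 2.47 to 1.64 ± 0.287 CPM (SD, n = 3), and SAG101, a defence gene, rose by 0.51 on the log2 scale. EDS5 overlaps a tested gene on the other strand and is the sixth tested locus from SHL.

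Several genes of the late anthocyanin steps fell. Of 27 tested flavonoid and anthocyanin genes 6 fell (22.2% against 2.52% of all loci) and 0 rose (median -0.38). Of the 6 falls, 3 were called in every fit without 1 library. AT5G63580, annotated as flavonol synthase 2 and described below, rose but is not in this list. The reductase gene DFR (AT5G42800) stood at 8.16, 11.2 and 12.6 CPM in WT and 0.629, 0.512 and 0.502 CPM in the ebs shl libraries (log2 fold change -4.26, SE 0.50, adjusted p = 9.8e-05, edgeR). LDOX (AT4G22880), the dioxygenase of the next step, stood at 7.07, 13.6 and 14.9 CPM in WT and 1.38, 1.39 and 0.614 CPM in the ebs shl libraries. GSTF12, the glutathione transferase that carries anthocyanins to the vacuole, stood at 4.53, 5.62 and 7.35 CPM in WT and 0.754, 1.02 and 1.28 CPM in the ebs shl libraries, and it overlaps a tested gene on the other strand. The glycosyltransferase genes UF3GT and UGT75C1, which decorate anthocyanins, fell by 2.93 and 1.70 on the log2 scale. All of DFR, LDOX and GSTF12 were below lhp1 in the direct test (log2 fold change -3.71, SE 0.51, adjusted p = 0.00064, edgeR for DFR). LDOX is 62 tested loci from EBS.

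Cytochrome P450 and UDP-glycosyltransferase genes had larger shares of rises than all loci, 20.8% and 14.0% against 5.31%. The shares called lower were 3.93% and 7.02%, against 2.52%. Of 178 tested cytochrome P450 genes 37 rose and 7 fell, with 21 and 5 called in every fit without 1 library. Their median was 0.19 on the log2 scale. CYP706A3 (AT5G44620) stood at 0.484, 0.489 and 0.754 CPM in WT and 17.3, 18.2 and 20.03 CPM in the ebs shl libraries (log2 fold change 4.99, SE 0.56, adjusted p = 5.8e-05, edgeR). CYP71B22 (AT3G26200) stood at 0.121, 0.427 and 0.377 CPM in WT and 4.4, 4.61 and 3.85 CPM in the ebs shl libraries. CYP96A9 (AT4G39480), the 35th tested locus from SHL, rose from 2.25 ± 0.547 to 17.8 ± 1.06 CPM (SD, n = 3). The organ growth gene CYP78A5, known as KLUH, rose by 1.31. By the direct test 28 of the 178 were above lhp1 and 8 below.

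Of 114 tested UDP-glycosyltransferase genes, which attach sugars to small molecules, 16 rose and 8 fell. AT2G36780 stood at 0, 0.183 and 0.188 CPM in WT and 5.28, 3.15 and 3.24 CPM in the ebs shl libraries (log2 fold change 4.89, SE 0.62, adjusted p = 0.00018, edgeR), and UGT71B5 and UGT71B8 rose from 0.656 ± 0.0992 to 3.63 ± 1.29 CPM and from 0.306 ± 0.117 to 1.84 ± 0.179 CPM (SD, n = 3). Of 51 tested glutathione transferase genes 1 rose and 3 fell (1.96% and 5.88%, against 5.31% and 2.52% of all loci). Among the falls ERD9 went from 210 ± 15.9 to 126 ± 14.6 CPM (SD, n = 3). Of 40 tested cuticle genes 5 rose and 5 fell. The wax ester synthase gene WSD1 (AT5G37300) stood at 1.15, 0.611 and 0.942 CPM in WT and 12.4, 15.7 and 16.1 CPM in the ebs shl libraries (log2 fold change 4.02, SE 0.37, adjusted p = 1e-05, edgeR), and the cutin gene CYP77A6 (AT3G10570) rose from 6.72 ± 0.551 to 15.7 ± 1.1 CPM (SD, n = 3). The cutin acyltransferase gene DCF (AT3G48720) stood at 26.5, 26.2 and 23.2 CPM in WT and 4.15, 6.66 and 6.3 CPM in the ebs shl libraries. For WSD1 and DCF the direct test did not separate the labelled double mutant from lhp1, where they stood at 12.8, 8.84 and 5.67 and at 2.82, 3.98 and 3.17 CPM.

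Lipid transfer proteins, small secreted proteins that bind lipids, had 8 rises and 11 falls among 65 tested genes. AT5G59330 stood at 0.786, 1.4 and 1.88 CPM in WT and 0, 0 and 0.0558 CPM in the ebs shl libraries, a ratio of 64.2 toward WT (counting interval 11.1 to 2574). AT4G22513 stood at 6.83, 7.08 and 7.67 CPM in WT and 0.691, 0.293 and 0.112 CPM in the ebs shl libraries (log2 fold change -4.29, SE 0.68, adjusted p = 0.0012, edgeR). It belongs to a run of genes of this kind near EBS, in which 10 tested members lay within 100 tested loci of it. Of these 5 fell and 1 rose, the latter AT4G22470, at 0.363, 0.489 and 0.126 CPM in WT and 4.02, 2.49 and 2.18 CPM in the ebs shl libraries.

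Sugar, starch and nitrogen lists had larger shares of rises than all loci, each from 3 or 4 members. Of 38 tested starch and sucrose genes 4 rose and 2 fell (10.5% and 5.26%, against 5.31% and 2.52% of all loci). Of these, 1 rise and 2 falls were called in every fit without 1 library. QQS (AT3G30720), a gene known to lower leaf starch, stood at 7.98, 9.83 and 7.98 CPM in WT and 0.44, 0 and 0.167 CPM in the ebs shl libraries (log2 fold change -5.30, SE 0.48, adjusted p = 9.8e-06, edgeR). APL3 (AT4G39210), a large subunit of the first enzyme of starch synthesis and the tenth tested locus from SHL, fell from 33.7 ± 7.35 to 9.65 ± 0.292 CPM, and the sucrose synthase gene SUS3 rose from 16.9 ± 3.75 to 32.7 ± 4.52 CPM (SD, n = 3). Of 26 tested sugar transporter genes 3 rose and 1 fell (11.5% and 3.85%). SUC5 (AT1G71890) stood at 1.75, 1.83 and 1.76 CPM in WT and 9.87, 8.56 and 7.47 CPM in the ebs shl libraries (log2 fold change 2.27, SE 0.33, adjusted p = 0.00057, edgeR), STP3 (AT5G61520) rose from 3.76 ± 0.487 to 14.3 ± 1.04 CPM and SWEET17 rose from 26 ± 1.1 to 40.7 ± 3.41 CPM (SD, n = 3).

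The nitrate reductase gene NIA1 (AT1G77760) stood at 46.8, 37.4 and 53.9 CPM in WT and 238, 269 and 327 CPM in the ebs shl libraries (log2 fold change 2.59, SE 0.43, adjusted p = 0.0015, edgeR). It was above lhp1, which stood at 46.9, 65.1 and 51.2 CPM. Of 49 tested genes of iron, nitrate, phosphate and sulfate supply 3 rose and 3 fell (6.12% each, against 5.31% and 2.52% of all loci). The phosphate transporter gene PHT1;5 (AT2G32830) stood at 0.121, 0.122 and 0.188 CPM in WT and 1.82, 1.68 and 1.17 CPM in the ebs shl libraries, and BHLH100, a regulator of iron deficiency genes, fell from 2.08 ± 0.819 to 0.345 ± 0.169 CPM (SD, n = 3). Of 28 tested genes of nitrogen and amino acid metabolism 4 rose (14.3% against 5.31% of all loci) and 0 fell. The asparagine synthetase gene ASN2 (AT5G65010) rose from 126 ± 3.07 to 223 ± 4.56 CPM and the lysine breakdown gene LKR from 24 ± 2.37 to 40.4 ± 3.05 CPM (SD, n = 3). Of 35 tested aliphatic glucosinolate genes 1 rose and 2 fell, the transporter gene GTR2 from 53.5 ± 4.83 to 113 ± 17.2 CPM and the aminotransferase gene BCAT3 from 153 ± 4.56 to 106 ± 8.23 CPM (SD, n = 3). GTR2 overlaps a tested gene on the other strand.

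Some immune receptor genes rose, and none of the 140 and 39 tested in both families below was called lower, against 2.52% of all loci. The shares called higher were 11.4% and 15.4%, against 5.31% of all loci. DESeq2 and the fits of 9 and of 6 libraries each called 1 TIR and NBS-LRR gene lower. Of 140 tested TIR and NBS-LRR genes, intracellular receptors of pathogen effectors, 16 rose and 0 fell, with 6 rises called in every fit without 1 library. The median of the 140 was 0.20 on the log2 scale. AT5G46260 stood at 2.06, 2.81 and 3.52 CPM in WT and 20.4, 16.1 and 18.8 CPM in the ebs shl libraries (log2 fold change 2.72, SE 0.20, adjusted p = 1.3e-06, edgeR). AT5G45220 stood at 0.967, 1.1 and 0.88 CPM in WT and 6.41, 6 and 6.92 CPM in the ebs shl libraries. The receptor gene RPM1 rose by 0.89. Of 39 tested receptor-like protein genes 6 rose and 0 fell, RLP22 from 0.844 ± 0.387 to 2.79 ± 0.0995 CPM and RLP49 from 7.62 ± 0.592 to 19.8 ± 3.55 CPM (SD, n = 3).

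Cysteine-rich receptor-like kinases, cell surface kinases of stress and defence, held the most unequal pair. CRK4 (AT3G45860) stood at 0.302, 1.04 and 0.314 CPM in WT and 41, 35.6 and 32 CPM in the ebs shl libraries (log2 fold change 6.01, SE 0.43, adjusted p = 9.6e-07, edgeR). CRK12 (AT4G23200) stood at 4.53, 2.63 and 3.64 CPM in WT and 0.0629, 0.146 and 0.112 CPM in the ebs shl libraries (log2 fold change -4.98, SE 0.62, adjusted p = 0.00015, edgeR). Of 31 tested members 6 rose and 2 fell. Many of these genes stand in a row on chromosome 4, and 17 of the 31 lay within 100 tested loci of EBS or SHL, of which 3 rose and 1, CRK12, fell. CRK4 is not among them. In lhp1 CRK4 was at 0.593, 0.933 and 0.61 CPM and CRK12 at 0.148, 0.0622 and 0.366 CPM.

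Genes of seeds and chromatin gave single large values rather than a group. The vicilin-like seed protein gene PAP85 rose to 15.2, 10.5 and 9.09 CPM from 0.121, 0 and 0.126, and the late embryogenesis gene M17 to 14.6, 17.3 and 17.6 CPM from 0, 0.672 and 0.251. Embryo and seed markers summed to 1.70 to 3.60 CPM in WT and 13.3 to 18.9 CPM in the labelled double mutant, of which PAP85 made up the largest part. Of the 16 markers 4 could be tested, and SESA1 and CRU3 had 0 counts in all 6 libraries. Among those with too few counts for a test, ABI3 had 0 counts in WT against 12 in ebs shl, and CRA1 had 3 against 42. Of 9 tested regulators of seed maturation 1 rose and 2, AGL15 and AGL18, fell. The one that rose, SOM (AT1G03790), a regulator of seed germination, went from 0.164 ± 0.186 to 1.58 ± 0.358 CPM (SD, n = 3). Of 26 tested Polycomb genes 2 rose and 1 fell, namely EMF1 (log2 fold change 2.08), ULT1 (0.66) and the demethylase gene JMJ30 (-1.44). Of 17 tested DNA methylation genes VIM5, of a family that binds methylated cytosine, stood at 0, 0 and 0.126 CPM in WT and 11.8, 11.5 and 9.59 CPM in the ebs shl libraries, a ratio of 266 (counting interval 73.2 to 2200.1). Of the 17, 1 was called higher and 0 lower. The fits of 9 and of 6 libraries each called 2 of the 17 higher and 4 lower. The linker histone gene HIS1-3 (AT2G18050), known to respond to drought, rose from 13 ± 2.23 to 31.1 ± 2.39 CPM (SD, n = 3). AT2G28720, a histone gene by its annotation, rose from 20.6 ± 1.36 to 41.6 ± 3.08 CPM (SD, n = 3), and the other 42 of 44 tested histone genes were not called. Of the 44, 36 had a negative log2 fold change (median -0.20), and 10 and 6 were called lower in the fits of 9 and of 6 libraries.

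**Figure D4:**
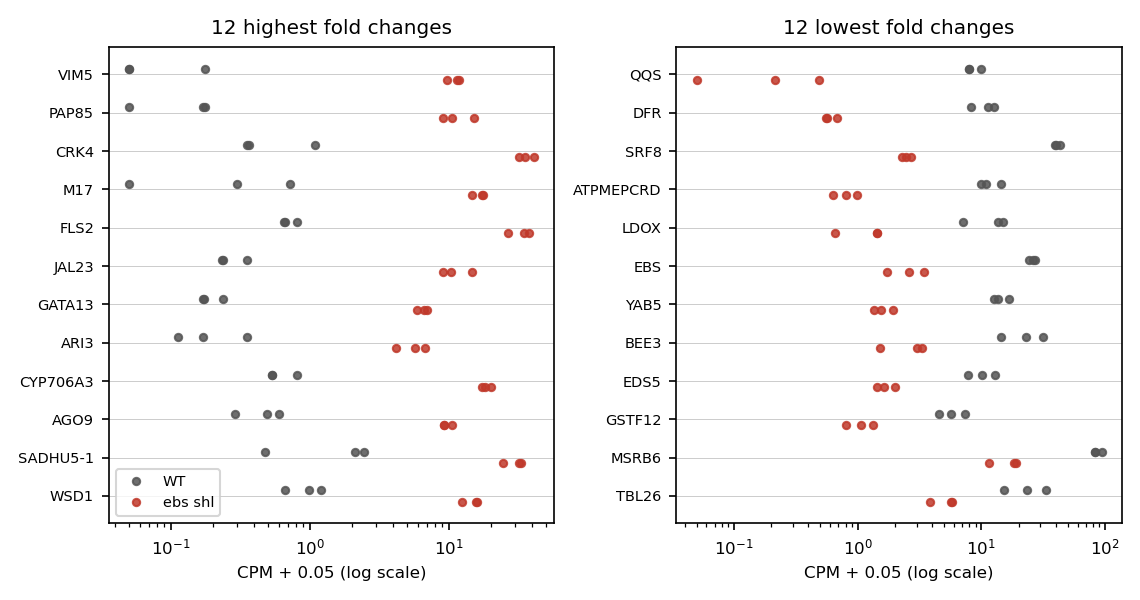
Level in each WT and ebs shl library (x axis, CPM plus 0.05 on a log scale) of the 12 highest and 12 lowest fold changes by the naming rule, which left out the 2 floral lists. The WT and ebs shl points do not overlap in any of the 24 genes, as the rule asked.

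Among the 12 highest and 12 lowest fold changes were further genes outside the lists. AGO9 (AT5G21150), an Argonaute protein that acts with small RNAs in the ovule, stood at 0.242, 0.55 and 0.44 CPM in WT and 9.18, 9.22 and 10.5 CPM in the ebs shl libraries (log2 fold change 4.53, SE 0.34, adjusted p = 1.2e-06, edgeR). AT5G63580, annotated as flavonol synthase 2, stood at 0.604, 0.611 and 0.754 CPM in WT and 26.5, 37.5 and 34.9 CPM in the ebs shl libraries (log2 fold change 5.63, SE 0.38, adjusted p = 5.5e-07, edgeR). ARI3 (AT3G27710), a RING protein gene, stood at 0.121, 0.305 and 0.0628 CPM in WT and 4.15, 5.71 and 6.69 CPM in the ebs shl libraries. The retroelement-like locus SADHU5-1 (AT4G01525) rose from 1.64 ± 1.06 to 29.8 ± 4.64 CPM, and JAL23 (AT2G39330), a jacalin-related lectin gene, from 0.225 ± 0.0672 to 11.4 ± 3.01 CPM (SD, n = 3). AGO9, AT5G63580, ARI3 and JAL23 were also above lhp1, whereas SADHU5-1 was not called against lhp1.

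On the lower side, MSRB6 (AT4G04840), a methionine sulfoxide reductase gene, stood at 83.6, 93.6 and 82.1 CPM in WT and 11.5, 19.2 and 18.2 CPM in the ebs shl libraries (log2 fold change -2.41, SE 0.28, adjusted p = 7.8e-05, edgeR). TBL26 (AT4G01080), of a family that acetylates cell wall polymers, fell from 23.9 ± 8.85 to 5.06 ± 1.11 CPM, and AT2G43050, a pectin methylesterase gene by its annotation, from 11.7 ± 2.31 to 0.763 ± 0.182 CPM (SD, n = 3). SRF8 (AT4G22130), a receptor-like kinase gene, stood at 42.8, 39.9 and 39.6 CPM in WT and 2.64, 2.41 and 2.23 CPM in the ebs shl libraries. It is the tested locus next to EBS, and in lhp1 it stood at 34.9, 38.4 and 32.6 CPM. MSRB6 stood at 15.6, 10.4 and 18 CPM in lhp1 and was not called in the direct test.

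Ribosomal protein, photosystem and cell cycle genes had smaller shares of calls than all loci (2.98%, 4.44% and 2.33% against 7.83%). Calls in the photosystem, clock and cellulose synthase lists were all falls. Their shares were 4.44%, 6.45% and 12%, against 2.52% of all loci called lower. Of 235 tested ribosomal protein genes 4 rose and 3 fell, with AT2G43030 falling from 324 ± 20.1 to 211 ± 8.93 CPM and AT3G09680, which overlaps a gene on the other strand, rising from 0.861 ± 0.324 to 3.55 ± 0.355 CPM (SD, n = 3). Of 45 tested photosystem and light harvesting genes 0 rose and 2 fell, with the antenna gene LHB1B1 (AT2G34430) at 1319.9, 2246 and 1725 CPM in WT and 812, 921 and 860.5 CPM in the ebs shl libraries. In all, 44 of the 45 had a negative log2 fold change, with a median of -0.20. Of 43 tested cell cycle genes 1 rose and 0 fell, and of 31 clock genes 0 rose and 2 fell, GRP8 from 272 ± 45.9 to 154 ± 25.3 CPM (SD, n = 3). GRP8 is the 15th tested locus from SHL. Of 25 tested cellulose synthase and wall genes 0 rose and 3 fell, all 3 of them primary wall subunits, with CESA2 (AT4G39350), 21 tested loci from SHL, going from 246 ± 14.3 to 149 ± 12.2 CPM (SD, n = 3). The other 2, CESA3 and CESA6, fell by 0.36 and 0.37 on the log2 scale.

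The remaining lists each held 1 to 4 calls. Of 30 tested subtilase genes 4 rose and 0 fell, ATSBT5.2 by 2.05 on the log2 scale in every fit without 1 library. Of 48 tested xyloglucan and expansin wall genes 1 rose and 3 fell, none of them in every fit without 1 library. Their median was -0.46 with 33 negative, and 8 were called lower by DESeq2 and 13 in each of the fits of 9 and of 6 libraries. Of 18 senescence genes 2 rose and 1 fell, and SGR2, a regulator of chlorophyll breakdown, rose by 1.46. Of 20 genes of dark and sugar starvation 2 rose, none in every fit without 1 library, and single libraries stood apart in both groups, with summed levels of 446, 1902 and 869.99 CPM in WT and 1718, 913 and 787 CPM in the labelled double mutant. Of 22 phenylpropanoid and lignin genes 1, FAH1, fell by 0.88. Of 16 late embryogenesis genes 3 rose, among them M17. Of 13 tested defensin genes 2 rose and 1 fell. Of 16 CLE peptide genes CLE43 fell by 1.82. Of 37 GRAS genes 2 rose and 1 fell, of 21 response regulator genes 2 rose and 1 fell, and of 22 heat shock genes 1 rose. Single calls were also made in the ARF (ETT), OFP (OFP6), TIFY (JAZ4) and G2-like (KAN1) families, all 4 higher, and in the heat shock factors (HSFA6A, lower). These single calls were read after their values were seen, and none of the 5 was called in every fit without 1 library.

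Some lists had no called member. These were Calvin cycle and Rubisco (19 tested genes), suberin and Casparian strip (19), indole glucosinolate and camalexin (23), touch and wounding (20), germin-like proteins (8), reference genes (11), DOF factors (28), BBX factors (28) and clock MYB factors (6). Their most abundant members did not pass the test, at adjusted p values in edgeR's test from 0.26 for ASFT (suberin) to 0.99 for CDF3 (DOF). ASFT and the reference gene EF1ALPHA overlap a tested gene on the other strand. The suberin list had a median log2 fold change of -0.48, with 16 of 19 members negative, and 4 of them were called lower in the fit of the 9 libraries of the same RNA kit and 5 in that of the 6 libraries alone. The touch list had a median of 0.48, with 15 of 20 positive, and its gene XTH22 was at 37.2, 208 and 26.1 CPM in WT and 80.7, 33.1 and 28.3 CPM in the labelled double mutant, so that 1 WT library lay far above the rest. In the heat shock factor list HSFA7A was at 6.95, 33.2 and 8.1 and 14.6, 9.07 and 6.02 CPM, with the same WT library highest.

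Called loci were denser next to EBS and SHL, the genes the label names, than over all loci. Both genes are on chromosome 4, where 8.89% of tested loci were called, against 7.12% to 8.27% on the other chromosomes. Of 197 tested loci within 100 of SHL in gene order 17 were higher and 23 lower, 20.3% in all, and of 200 loci 101 to 300 places from SHL 7% were called. These 200 all have lower locus numbers than SHL, and of the nearest 100 on that side 16% were called. Falls were most frequent on the side of SHL with higher locus numbers, where 16 of 97 loci were lower and 8 higher. Of 200 tested loci within 100 of EBS 13 were higher and 9 lower, 11% in all, and 7 of the 9 falls were on the side with higher locus numbers. Of the named genes, the heat shock gene HSA32 (log2 fold change 1.44), SRF8, LDOX, CRK12, AT4G22470 and AT4G22513 lie within 100 tested loci of EBS, and EDS5, APL3, GRP8, CESA2, CYP96A9 and the ribosomal protein gene AT4G39880 (-0.47) lie within 100 of SHL. The labels do not give the parental lines, and the part of linked segments in these values was not tested. None of the called SHI/STY, ALOG, TCP, NF-Y, NAC or boundary genes lies in these windows.

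**Figure D5:**
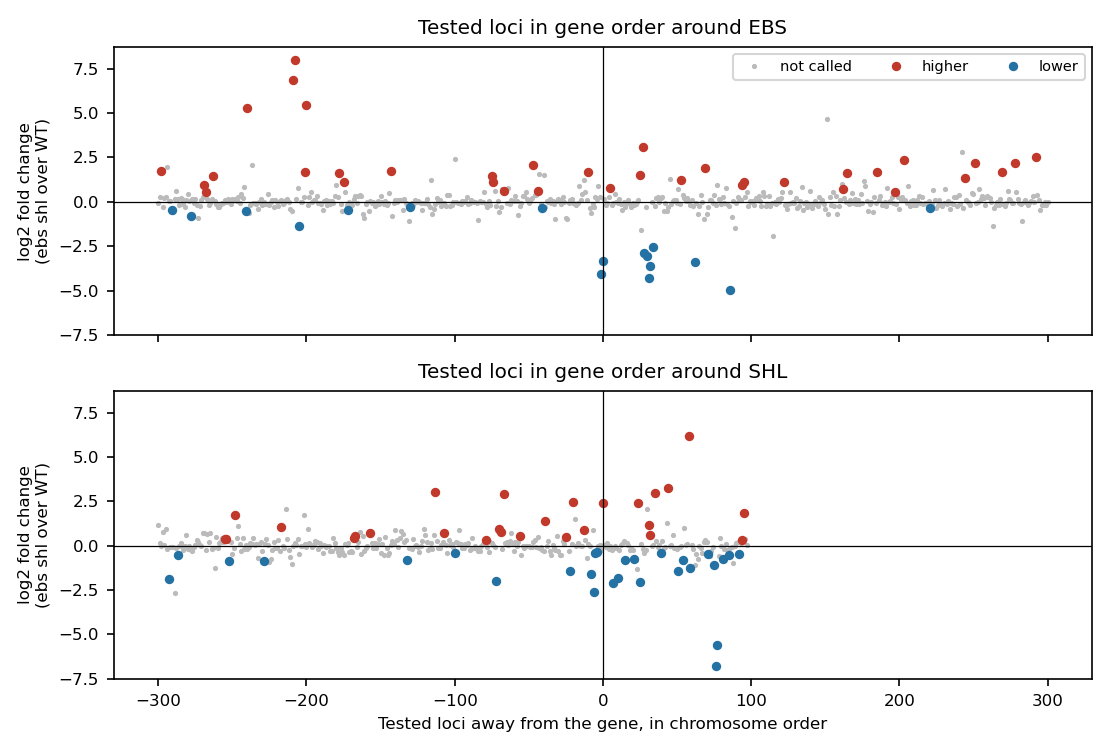
Log2 fold change of ebs shl over WT (y axis) of each tested locus up to 300 tested loci on either side of EBS (upper panel) and SHL (lower panel), in chromosome order (x axis, number of tested loci). Called loci are coloured, and of the 97 loci that follow SHL 16 are called lower and 8 higher.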

How the data were processed

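The deposited files hold raw counts of reads per locus, 1 file per library, with no normalization by the authors. The library kit was a stranded one for mRNA, per the labels' protocols. TopHat2 2.1.1, HTSeq, edgeR and the build TAIR10 are named in the submitters' processing notes, and the strand setting of the counting is not given in the sources used here.

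Counts of all 15 libraries (5 genotypes, 3 repeats each) were fitted together with edgeR 4.0.16 (R 4.3.3, limma 3.58.1), with 1 mean per genotype, filterByExpr and TMM factors, and the quasi-likelihood test with Benjamini-Hochberg adjustment over 20477 loci. Rows that name no gene were left out. SE is the absolute log2 fold change over the square root of F. The labels call the libraries repeats. The p-values set a difference against a spread between libraries that was estimated over all 15, not over the WT and ebs shl libraries alone. DESeq2 1.42.0, other scalings, filters, sample sets, a replicate block and fits without 1 library were alternatives. Depth was 12695752 to 16247262 counts, and counting intervals (exact, 95%) and floors of 3 counts cover counting error only.

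Named genes were EBS, SHL, EMF1 and LHP1, then the 12 highest and 12 lowest fold changes with a symbol, at least 5 CPM, groups that did not overlap and calls in all 6 fits without 1 library, outside the floral lists. Up to 3 such members of at least 1 CPM were named per list, or else its most abundant member. Other genes behind a small count, or given by a fold change alone, were chosen after their values were seen. The members and lists were chosen with earlier results of these data known. No named gene had a near-identical copy in BLAST 2.17.0 (at least 95% identity over at least 50% of the length).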

Additional observations from a re-analysis of the deposited data

How the results depend on the processing

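Called loci numbered 1604 for the labelled double mutant against WT, 2593 in a fit of the 9 libraries of the same RNA kit (1053 lower) and 2342 in one of the 6 libraries alone (894 lower). A change of at least 1 on the log2 scale left 907, 706 higher and 201 lower. Without 1 library in turn there were 950 to 1119, 724 to 801 higher and 217 to 346 lower. Against lhp1 the 1036 calls became 2274 (1367 higher, 907 lower) with the 2 genotypes alone and 2053 (1268 higher, 785 lower) with 9 libraries, DESeq2 called 490 lower, and without 1 library there were 564 to 732 (437 to 549 higher, 108 to 183 lower). Within 100 tested loci of EBS the 22 calls became 34 with 2 genotypes and 13 to 16 without 1 library. The cause of these changes was not tested. Members called lower also rose in number in single lists, from the main count to those with 9 and 6 libraries: 5 to 13 and 13 in SAUR, 2 to 8 and 8 in aliphatic glucosinolate, 3 to 9 and 9 in iron, nitrate, phosphate and sulfate supply, 1 to 4 and 6 in phenylpropanoid and lignin, 5 to 10 and 10 in cuticle, wax and cutin, 11 to 17 and 16 in lipid transfer proteins, 10 to 15 and 15 in bHLH, 7 to 16 and 17 in cytochrome P450.

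Same-numbered WT and ebs shl libraries did not deviate together from their group means (r = -0.236, -0.0518 and 0.025), so the numbers are not taken to pair samples. With replicate number as a block 935 loci were higher and 419 lower against WT, and 624 and 221 against lhp1.

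Of the 170 named genes 149 were called, and 146 of these were called in all 8 settings that kept every library. The other 3 had too few counts for the stricter filter. Of the 21 named genes that were not called some changed sign. XTH4 (adjusted p = 0.0838) was called by DESeq2 (0.0256), with 2 genotypes (0.0027) and with 9 libraries (0.000486), GER3 (0.267) with 2 genotypes (0.00265) and 9 libraries (0.0019), and PIP1;1 (0.166) with 9 libraries (0.0332), all by edgeR except where DESeq2 is named. With the stricter filter OFP16 was at -0.000979 and CDF3 at -0.000761 on the log2 scale. Without 1 library in turn the lowest and highest log2 fold changes were -0.241 and 0.0377 for JAZ9, -0.0272 and 0.258 for GPRI1, -0.0115 and 0.105 for GSTF9, -0.235 and 0.217 for OFP16, -0.0512 and 0.261 for AT3G05730, -0.109 and 0.138 for CDF3, -1.1 and 0.388 for HSFA7A, -0.0786 and 0.472 for KMD4, -0.0782 and 0.00312 for LHP1, -0.147 and 0.041 for COL4, -1.56 and 0.577 for XTH22, and -0.0656 and 0.0332 for CYCD3;2. Loci outside the 20477 tested of 33602 were removed by the count filter, and without it 1580 loci were called against WT (1091 higher). Some loci removed by the filter differed in summed counts, such as UFO with 4 in WT and 33 in ebs shl.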
